A study of Homo sapiens with 4 samples.

Results

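The longest segments of the macroH2A1 maps of IMR90 fibroblasts were taken as the autosomal segments that span 200 kb or more from first to last base, in each of 2 ChIP replicates separately. They were chosen by their span in the authors' segmentation, whatever the sign of their signal. Replicate 1 held 2143 such segments among 46328 autosomal segments (4.63%), and replicate 2 held 2871 among 25244 (11.4%). The 2143 long segments made up 35.0% of the 2643 Mb covered by segments in replicate 1, and the 2871 made up 50.1% of 2613 Mb in replicate 2. The series compared 2 biological replicates of a macroH2A1 chromatin immunoprecipitation with 2 corresponding input samples, all by sequencing. IMR90 is an established line of fetal lung fibroblasts grown to near confluence, and the labels name no treatment or genetic change. Chromatin was crosslinked with formaldehyde and sheared to about 500 bp. A segment is a stretch to which the authors gave 1 log2 ratio of ChIP over input. It can consist of several blocks of sequence with gaps between them, and its span includes the gaps. The inputs entered only through the ratio, read depth is unknown, and the spread between the replicates is the only measure of error. ChIP reports where a protein sits and not which genes are expressed, so the fibroblast label could not be checked against expression markers.

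MacroH2A1 is a variant of the core histone H2A with a large additional macro domain. It takes the place of ordinary H2A in a share of nucleosomes and spreads over broad domains, including the inactive X chromosome, and transcribed gene bodies are known to be poor in it. In fibroblasts it is also known for its part in the condensed chromatin of senescent cells. Here, a segment with a log2 ratio above 0 is called high and one at 0 or below is called low. A ratio is relative to input, with a scaling that is not known, and gives no absolute amount of the histone.

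Long segments with ratios below -1, between -1 and -0.5 and above 0.5 recur below, and a pair of promoters from each range is shown as an example of the gene starts they hold. The 250 bases upstream of the annotated start are given 5′ to 3′ on the gene's strand, with every CG dinucleotide in capitals. They were taken from RefSeq (GRCh38.p14) and placed on hg19 by exact match. The first pair lay in long segments with log2 ratios below -1: SLC35E2B, a solute carrier gene, at chr1:1624235-1624484 on the minus strand, and RASA3, a GTPase-activating protein for Ras, at chr13:114898099-114898348 on the minus strand.
SLC35E2B: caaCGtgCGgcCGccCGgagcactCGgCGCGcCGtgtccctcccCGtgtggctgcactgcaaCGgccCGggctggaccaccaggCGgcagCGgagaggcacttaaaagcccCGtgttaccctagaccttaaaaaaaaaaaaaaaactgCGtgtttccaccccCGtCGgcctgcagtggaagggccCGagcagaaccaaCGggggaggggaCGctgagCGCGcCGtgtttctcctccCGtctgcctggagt
RASA3: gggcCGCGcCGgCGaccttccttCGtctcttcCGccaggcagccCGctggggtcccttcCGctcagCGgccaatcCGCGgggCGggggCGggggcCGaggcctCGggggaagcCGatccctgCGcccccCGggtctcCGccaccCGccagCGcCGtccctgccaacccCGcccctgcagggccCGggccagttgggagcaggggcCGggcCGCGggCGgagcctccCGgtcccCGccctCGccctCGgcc
The second pair lay in long segments between -1 and -0.5: PTPRD, a receptor tyrosine phosphatase of neurons, at chr9:10613003-10613252 on the minus strand, and PCDH15, a protocadherin of hair cells and retina, at chr10:57387703-57387952 on the minus strand.
PTPRD: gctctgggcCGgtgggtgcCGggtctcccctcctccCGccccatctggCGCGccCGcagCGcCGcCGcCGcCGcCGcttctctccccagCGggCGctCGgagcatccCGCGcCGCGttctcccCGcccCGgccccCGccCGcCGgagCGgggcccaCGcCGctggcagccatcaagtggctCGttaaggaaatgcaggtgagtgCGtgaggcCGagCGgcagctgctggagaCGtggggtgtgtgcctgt
PCDH15: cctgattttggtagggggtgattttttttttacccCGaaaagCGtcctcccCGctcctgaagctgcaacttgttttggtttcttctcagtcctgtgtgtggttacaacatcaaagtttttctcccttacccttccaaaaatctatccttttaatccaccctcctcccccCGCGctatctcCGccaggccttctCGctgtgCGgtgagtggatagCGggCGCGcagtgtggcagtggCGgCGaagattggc
The last pair lay in long segments above 0.5: TXLNB, a muscle taxilin, at chr6:139613136-139613385 on the minus strand, and KRT12, a keratin of the cornea, at chr17:39023476-39023725 on the minus strand.
TXLNB: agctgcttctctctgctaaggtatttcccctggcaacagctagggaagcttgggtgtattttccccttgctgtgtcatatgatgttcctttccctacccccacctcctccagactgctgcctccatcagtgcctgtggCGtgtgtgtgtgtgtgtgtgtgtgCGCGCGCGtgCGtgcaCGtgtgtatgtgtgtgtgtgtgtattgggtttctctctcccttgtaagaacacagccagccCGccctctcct
KRT12: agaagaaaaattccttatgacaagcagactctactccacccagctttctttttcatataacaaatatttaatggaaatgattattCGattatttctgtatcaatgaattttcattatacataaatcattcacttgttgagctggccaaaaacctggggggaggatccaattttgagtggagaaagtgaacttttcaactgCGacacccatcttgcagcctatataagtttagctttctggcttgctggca
The windows held 24 CG in SLC35E2B and 32 in RASA3, 32 in PTPRD and 13 in PCDH15, and 8 in TXLNB and 2 in KRT12. Over all 34796 distinct RefSeq windows of this length, 93.9% held at least 1 CG, with a median of 11 and quartiles of 3 and 23. These windows do not separate the ranges, since PTPRD has as many CG as RASA3, and base composition by range is counted over all genes further on. SLC35E2B lies in a duplicated stretch with CDK11A and CDK11B, so its value may draw on near-identical copies.

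Most long segments were low. Of the 2143 long segments of replicate 1, 626 were high (29.2%), against 48.9% of all its autosomal segments. Of the 2871 of replicate 2, 957 were high (33.3%), against 49.1% of all. Low long segments were also the longer ones: their median span was 338 kb in replicate 1 and 341 kb in replicate 2, against 267 kb and 282 kb for high long segments. Above 1 Mb the difference was wider, with 14 high and 156 low segments in replicate 1 and 14 high and 227 low in replicate 2. The share of high segments was lower on the far side of the threshold, at 37.6% for spans of 200 to 250 kb and 41.3% for 150 to 200 kb in replicate 1, and 42.3% and 44.8% in replicate 2. The segments nearest the threshold in replicate 1 spanned 200.046 kb with a log2 ratio of -0.03 just inside it and 199.94 kb with a log2 ratio of 0.30 just outside. In replicate 2 they spanned 200.029 kb with 0.86 inside and 199.991 kb with -2.31 outside. The rule chose segments by span, and span comes from the same segmentation as the ratio, so these shares are a description and not a test.

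**Figure D1:**
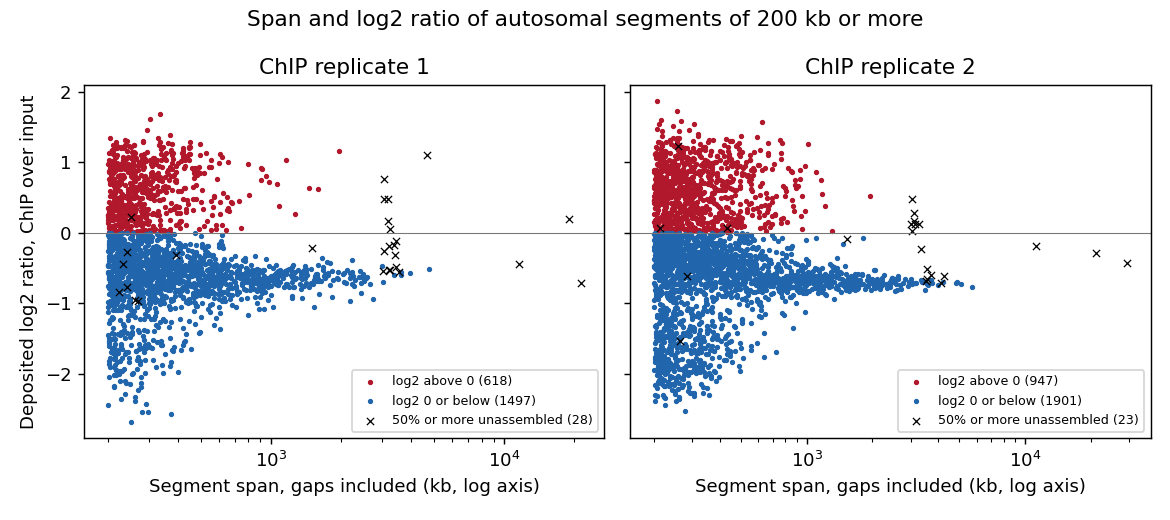
Span (log axis, kb) against the deposited log2 ratio for each segment of 200 kb or more, with replicate 1 on the left and replicate 2 on the right. High segments are red, low ones blue, and crosses mark segments of which 50% or more is unassembled. The cloud of low segments narrows towards ratios near -0.7 as spans grow past 1 Mb, and the spans past 5731 kb, the longest assembled segment, are all crosses.

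The very longest spans bridged centromeres and other assembly gaps. In replicate 1, 28 long segments were at least 50% unassembled in hg19, 8 of them high, and in replicate 2, 23 were, 10 of them high. The longest of replicate 1, chr1:121485490-142785790, spanned 21300 kb but held 199 kb of blocks, with log2 ratios of -0.71 in replicate 1 and -0.68 in replicate 2. The longest of replicate 2, chr9:38720244-67974579, spanned 29254 kb with 2406 kb of blocks and had -0.43 in its own replicate and -0.34 in replicate 1. Another segment of replicate 1, chr21:1-4675502, had a ratio of 1.10 but no assembled base, and replicate 2 had no block there. Blocks summed to less than 200 kb in 107 long segments of replicate 1 and 117 of replicate 2. The counts of genes of the lists described below were the same with and without the segments that are at least 50% unassembled. Of 1547 measured, 58 started in high and 325 in low long segments of both replicates. Over all 18776 measured coding genes, with those segments kept, it was 243 (1.29%) and 1382 (7.36%).

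The low long segments fell into groups with different gene content. The first had log2 ratios below -1 and comprised 220 segments in replicate 1 and 438 in replicate 2. These were mostly bodies of genes: 83.1% of their bases in replicate 1 and 91.8% in replicate 2 lay in spans of protein-coding genes, against 46.7% and 46.8% over all autosomal segments. Segments below -1 of any length had 88.4% and 89.7%, so the long ones were close to all segments of that range. A single gene covered at least 80% of the span in 139 of the 220 (63.2%) and in 263 of the 438 (60.1%). No coding gene was touched by 5.91% of them in replicate 1 and 1.37% in replicate 2. That count is read against 33.9% of all autosomal segments in replicate 1 and 27.9% in replicate 2, and among segments below -1 of any length it was 5.71% and 2.42%. Their gene starts, 4.82 and 8.19 per Mb, were fewer than the 18.4 and 17.3 per Mb of all segments below -1 of any length, which are mostly short.

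The lowest long segment of replicate 1, chr8:145289940-145542145, held 49.4 kb of blocks with BOP1, a ribosome biogenesis factor, and HSF1, the heat shock transcription factor, at -2.69 in replicate 1 and -2.16 in replicate 2. TRIO, a guanine nucleotide exchange factor for small GTPases, filled chr5:14140909-14512536, whose log2 ratio was -2.57 in replicate 1 and -2.28 in replicate 2. The stretch of 278 kb shared by both replicates at chr1:1548894-1826824, with GNB1, a G protein beta subunit, and NADK, the cytosolic NAD kinase, had -2.55 and -2.53. The stretch at chr1:235270826-235494906 held ARID4B, a chromatin protein of Sin3 complexes, and TOMM20, a receptor of mitochondrial protein import, at -2.29 in replicate 1 and -2.44 in replicate 2. EP400, the ATPase of a chromatin remodelling complex, lay at chr12:132379709-132639734 with -2.33 and -2.14. BRAF, a kinase of the MAP kinase cascade, lay at chr7:140375958-140625514 with -2.01 and -2.25, and PRKDC, the catalytic subunit of the DNA-dependent protein kinase, had -2.45 and -2.31 over its body. All of these lay below -1 in both replicates, and the replicates differed from each other by less than 1 log2 unit. Steps at their borders could be steep: the segment to the left of TRIO had a ratio of 1.98 in replicate 1.

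The second group of low long segments, between -1 and -0.5, was the largest by bases, with 808 segments and 495 Mb in replicate 1 and 778 segments and 622 Mb in replicate 2. It was gene-poor, with 2.00 and 2.17 coding starts per Mb against 7.28 and 7.35 over all autosomal segments, and 28.5% and 29.8% of bases in coding genes. Its segments were the longest by median, at 439 kb in replicate 1 and 546 kb in replicate 2, and their GC content was 37.9% and 37.8%, against 41.0% over all autosomal segments in each replicate. The longest assembled segment of replicate 1, chr3:81991550-86749802, spanned 4758 kb and held 1 coding gene, CADM2, a synaptic cell adhesion molecule, with log2 ratios of -0.52 in replicate 1 and -0.69 in replicate 2. The longest of replicate 2, chr13:53842690-59573372, spanned 5731 kb around PCDH17, a protocadherin, with -0.77 in replicate 2 and -0.60 in replicate 1. Further examples were chr10:55307656-58925716 with PCDH15, at -0.60 in replicate 1 and -0.69 in replicate 2, and chr5:22646922-26847091 with the cadherins CDH12 and CDH10, at -0.70 in replicate 2 and -0.57 in replicate 1. Every one of these ratios was below 0 in both replicates.

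The other low long segments lay between -0.5 and 0, with 489 segments in replicate 1 and 698 in replicate 2. They had 2.96 and 4.18 coding starts per Mb, and 31.5% and 39.6% of their bases were in coding genes.

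High long segments above 0.5 had the smallest share of bases in coding gene spans of the 5 ranges. Those between 0 and 0.5 had 29.0% in replicate 1 and 32.2% in replicate 2. That was more than the 28.5% and 29.8% of long segments between -1 and -0.5. In segments above 0.5, of which there were 366 in replicate 1 and 548 in replicate 2, coding genes covered 15.7% and 23.2% of bases. Their start sites, 2.07 and 3.45 per Mb, were no fewer than the 2.00 and 2.17 per Mb of long segments between -1 and -0.5, and exons took 0.716% and 1.44% of bases, against 0.918% and 1.06% in that range. High and low long segments as a whole had similar start densities, 2.31 for high and 2.48 for low in replicate 1 and 3.51 for high and 3.43 for low in replicate 2. No coding gene was touched by 55.2% of the long segments above 0.5 in replicate 1 and 36.9% in replicate 2. Among segments above 0.5 of any length it was 54.7% and 46.1%, and over all autosomal segments 33.9% and 27.9%. In replicate 2 the long ones were thus less often free of coding genes than their range as a whole. High segments of any length were also often free of coding genes, 50.0% of them in replicate 1 and 43.0% in replicate 2, so gene-free spans were not confined to the long ones. Start sites of long noncoding RNAs in the long segments above 0.5 numbered 5.50 and 7.45 per Mb, against 6.90 and 6.98 per Mb over all autosomal segments. GC content was 38.7% in replicate 1 and 40.9% in replicate 2, and the replicates thus differed more here than among low segments.

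**Figure D2:**
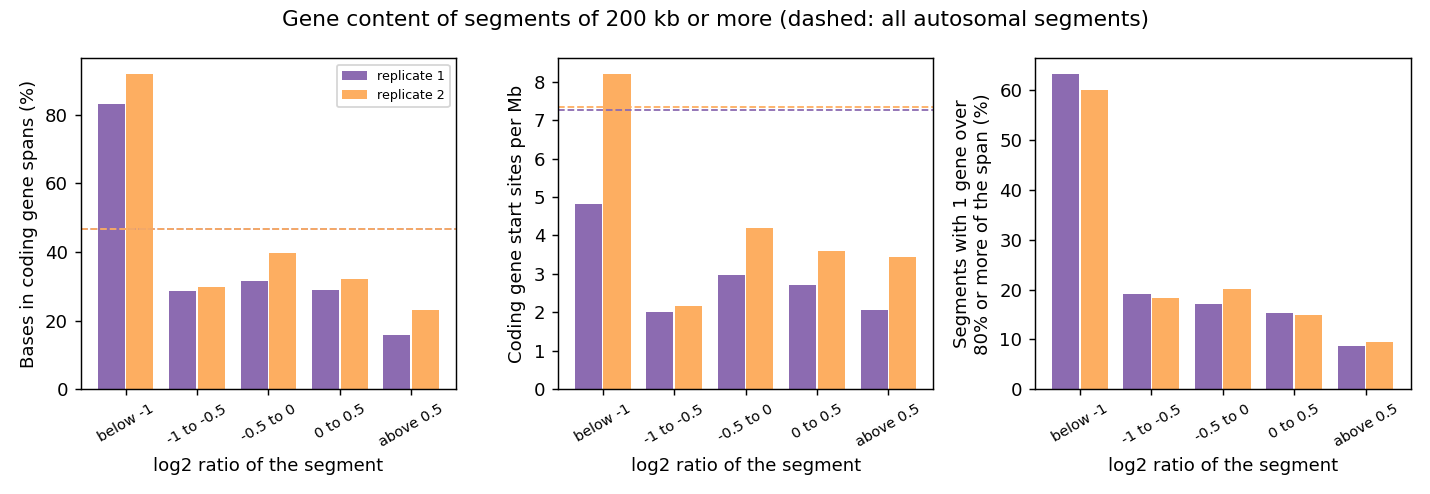
Gene content of segments of 200 kb or more in 5 ranges of log2 ratio, with bars for replicate 1 (purple) and replicate 2 (orange) and dashed lines for all autosomal segments. From left to right the panels give 3 measures. They are the percent of bases in coding gene spans, coding start sites in the whole span per Mb of block, and the percent of segments of which 1 gene covers 80% or more. Segments below -1 stand out at 83.1% and 91.8% of bases in coding genes.

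Among the high long segments, the longest assembled stretch shared by both replicates was chr6:74580616-75737600, 1157 kb with no coding gene, at 1.02 in replicate 1 and 0.75 in replicate 2. The shared high stretch with the highest mean ratio, chr9:117881849-118185063, spanned 303 kb, held no coding gene and had 1.61 and 1.54, a mean of 1.58 ± 0.05 (SD, n = 2). The second, chr10:80134591-80586295, likewise held no coding gene and had 1.28 in replicate 1 and 1.57 in replicate 2. Of the 12 shared high stretches with the highest means, KCNJ16, a potassium channel gene, and LYZL1, a lysozyme-like gene, were the only coding genes with a start inside. Around KCNJ16, chr17:67947506-68152666 had 1.34 in replicate 1 and 1.15 in replicate 2. Around LYZL1, chr10:29343510-29679917 had 1.19 and 1.28. The highest long segment of replicate 2, chr12:125054046-125261015, had 1.87 there and 1.45 in replicate 1, where it was divided among 9 segments. The highest of replicate 1, chr10:47983238-48319570, had 1.69 and 1.29 but held only 66.2 kb of blocks, in a duplicated stretch with AGAP9 and ANXA8.

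A long segment carries 1 value, and single genes inside it could differ in sign in the other replicate. Whether such a gene is averaged over by the longer segment or differs between the cultures cannot be told apart here. The longest assembled high segment of replicate 1, chr8:121824758-123792158, spanned 1967 kb at 1.16, and replicate 2 averaged 1.05 over it but divided it into 16 segments. HAS2, a hyaluronan synthase, lay inside and read 1.16 in replicate 1 and -0.39 in replicate 2. The reverse case was chr18:64881529-66090210 of replicate 2, at 0.38 there and 0.57 in replicate 1, in which DSEL, an epimerase for dermatan sulfate, read 0.38 in replicate 2 and -1.04 in replicate 1. Of 277 coding genes wholly inside high long segments of replicate 1, 32 (11.6%) had a ratio of 0 or below in replicate 2. Of 755 wholly inside those of replicate 2, 183 (24.2%) had a ratio of 0 or below in replicate 1. Inside low long segments, 56 of 1267 genes (4.42%) for replicate 1 and 100 of 2640 (3.79%) for replicate 2 had a ratio above 0 in the other replicate. Over all 18776 measured coding genes the median ratio was -0.96 in replicate 1 and -0.81 in replicate 2, so ratios below 0 are the commoner ones. How many of all measured genes differ in sign between the replicates was not counted. The difference between high and low segments was not tested and cannot be read as particular to long segments.

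Most long segments had the same sign in the other replicate. Of those of replicate 1, 93.4% had it over at least 50% of their block bases in replicate 2, against 84.8% of all its autosomal segments. For replicate 2 the share was 93.5%, against 90.6% of all. In replicate 1 the excess was not shared by both signs. High long segments of replicate 1 matched in 82.9%, against 84.5% of its high segments of any length, and low ones in 97.8% against 85.1%. In replicate 2 both signs exceeded their segments of any length, at 92.9% against 89.4% for high and 93.8% against 91.8% for low ones. The log2 ratios of the long segments and the mean ratio of the other replicate over the same bases differed by a median of 0.16 for replicate 1 and 0.15 for replicate 2. Pearson's r was 0.95 over 2142 segments and 0.97 over 2871, and Spearman's coefficient was 0.89 and 0.96. These coefficients describe segments that neighbour each other in the same libraries, and carry no test.

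Mismatches were concentrated near 0. In replicate 1, 106 high and 34 low long segments had the opposite sign in replicate 2, and all 106 high ones had ratios between 0 and 0.5. In that range the same sign was found for 59.2% of the 260 segments of replicate 1 and 83.6% of the 409 of replicate 2. Among segments of any length in that range it was 70.3% and 75.2%. For long segments above 0.5 the same sign was found in 99.7% and 99.8%, and for those below -1 in all 220 and all 438. In replicate 2, 68 high and 118 low long segments had the opposite sign, and 117 of the 118 low ones lay between -0.5 and 0. The low segments of replicate 1 below -0.5 included 2 mismatches. One, chr1:148241101-148511371, had -0.96 in replicate 1 and 0.27 in replicate 2, and 55.5% of its span was unassembled. The other, chr1:205922817-206146095, had -0.84 and 0.78, and 67.1% of its span was unassembled.

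**Figure D3:**
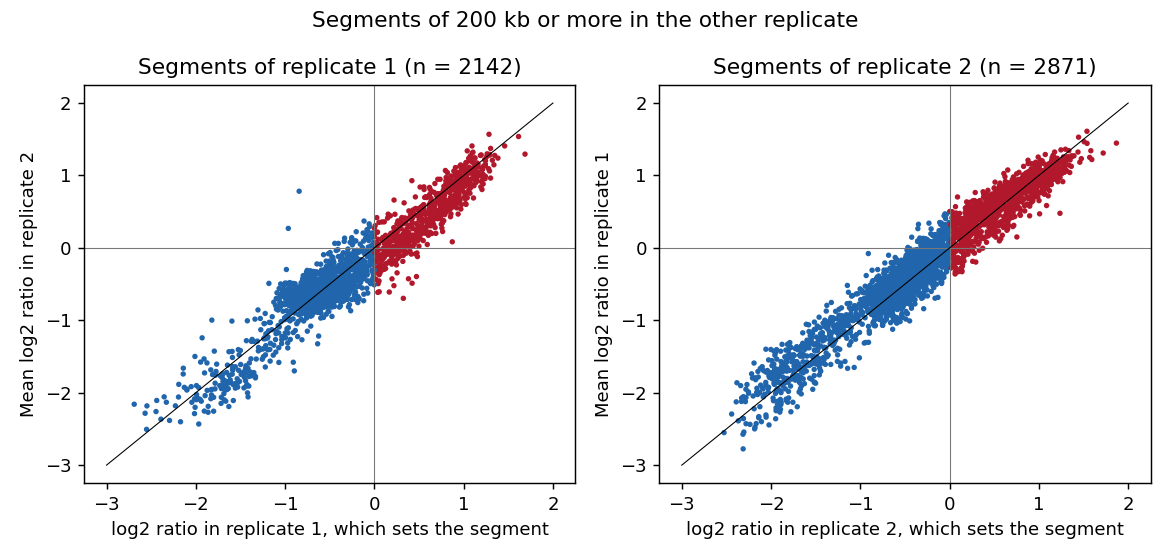
Each point is a segment of 200 kb or more, placed by the log2 ratio in the replicate that defines it (horizontal) and the mean log2 ratio of the other replicate over the same bases (vertical). Segments of replicate 1 are on the left (n = 2142) and those of replicate 2 on the right (n = 2871), high ones red and low ones blue, and the diagonal marks equal values. Points whose signs differ lie mostly near 0.

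Boundaries matched less closely than signs. A single segment of the other replicate overlapped by at least 50% in both directions for 1373 long segments of replicate 1 (64.1%) and 1648 of replicate 2 (57.4%). Over all autosomal segments the shares were 35.1% in replicate 1 and 64.5% in replicate 2, so the long ones stood above all segments in replicate 1 and below them in replicate 2. Of these pairs 1223 had both partners of 200 kb or more, which was 89.1% of the pairs of replicate 1 and 74.2% of those of replicate 2. The edges of paired segments lay a median of 20.4 kb apart for replicate 1 and 21.9 kb for replicate 2, and 38.9% and 37.5% of edges were within 10 kb. Stretches in low long segments of both replicates came to 752 Mb, 91.4% of the span of the low long segments of replicate 1 and 67.1% of those of replicate 2. Stretches in high long segments of both came to 134 Mb, 56.5% for replicate 1 and 39.1% for replicate 2. These lengths are spans that include gaps, among them unassembled sequence. In replicate 1 the low long segments spanned 823 Mb with 731 Mb of blocks, and the high ones 237 Mb with 195 Mb. Gaps therefore enter both shares, and the contrast between them is not one of blocks alone.

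The edges were nonetheless visible in the replicate that had not set them. Means by distance from the edge leave out long segments whose blocks sum to less than 200 kb. At the edges of the high long segments of replicate 2, replicate 1 averaged 0.59 in the last 10 kb inside, 0.09 in the first 10 kb outside and -0.06 in the next 10 kb. At those of replicate 1, replicate 2 averaged 0.45 inside, 0.18 in the first 10 kb outside and 0.01 at 100 to 110 kb. High long segments of replicate 1 thus stood beside sequence that was itself often high: the neighbouring segments had a median ratio of 0.40, and 65.1% of 1251 were above 0. In replicate 2 the neighbours of high long segments had a median of 0.01, and 50.4% of 1912 were above 0. Low long segments had higher neighbours in 76.9% of 3034 cases in replicate 1 and 76.7% of 3821 in replicate 2.

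**Figure D4:**
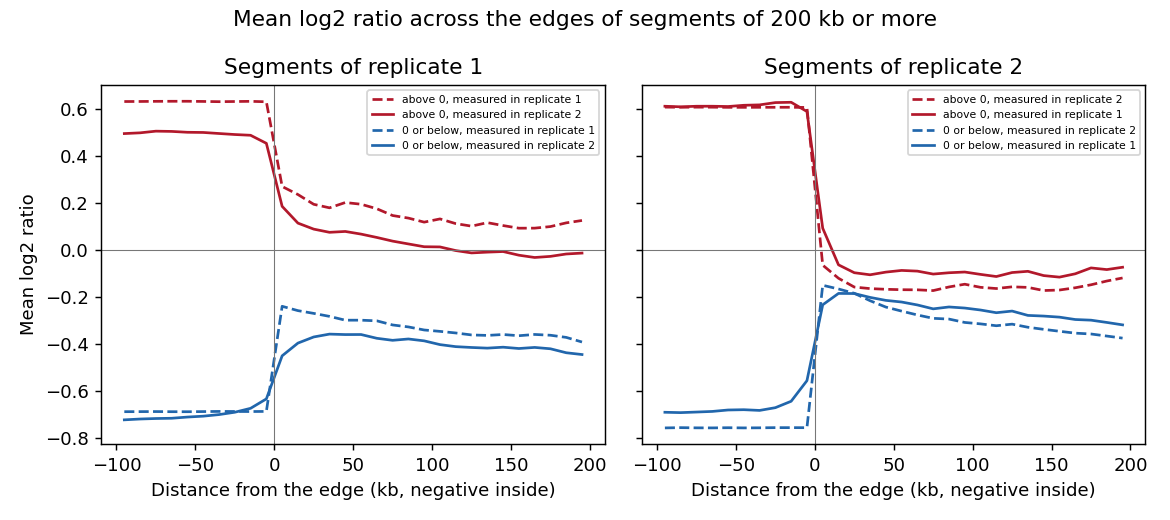
Mean log2 ratio in steps of 10 kb by distance from the edge of segments of 200 kb or more (negative inside, positive outside), for segments of replicate 1 on the left and of replicate 2 on the right. High segments are red and low ones blue, dashed lines are measured in the replicate that sets the edge and solid lines in the other. The solid lines step at the same place as the dashed ones, and the high segments of replicate 1 fall less far outside. Segments whose blocks sum to less than 200 kb are left out.

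The chromosomes carried long segments unevenly. Low long segments covered the largest share of chromosome 4, 36.0% in replicate 1 and 48.1% in replicate 2, and the smallest of chromosome 17, 10.3% and 19.3%. High long segments were scarcest on the gene-dense chromosome 19, at 0.82% in replicate 1 (2 segments) and 4.08% in replicate 2 (8 segments). Chromosome 13 had 11.3% and 17.5%. Chromosome 21 reached 18.9% in replicate 1, which includes the segment with no assembled base, and 17.2% in replicate 2.

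Of 18776 measured coding genes, 243 (1.29%) had their start in high long segments of both replicates and 1382 (7.36%) in low long segments of both. A further 69 were in a high segment in one replicate and a low one in the other, and 14278 started outside long segments in both. Starts in low segments below -1 in both replicates belonged to 200 genes, with a median length of 77.5 kb and a median gene ratio of -1.69 in replicate 1 and -1.89 in replicate 2. Between -1 and -0.5 there were 717 genes, with a median length of 19.2 kb. Above 0.5 there were 148, with a median length of 14.7 kb and median ratios of 0.94 and 0.89. A promoter was counted as rich in CpG when the 500 bases on each side of the start had at least 55% GC and an observed over expected CpG ratio of at least 0.75. Such promoters belonged to 107 of the 200 genes below -1 (53.5%), 98 of the 717 between -1 and -0.5 (13.7%) and 13 of the 148 above 0.5 (8.78%), against 36.8% of all measured genes. Clustered families weigh on these medians and shares. Keratin and keratin-associated genes made up 37 of the 148, and the 717 included 150 olfactory receptors and 32 keratin or keratin-associated genes. Over their whole lists, 0.26% of olfactory receptors and 0.67% of keratin genes had such promoters.

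Genes of neuronal adhesion and synapse had the largest share of the 15 lists in long low segments. Of 56 measured members, 31 (55.4%) started in low long segments of both replicates and 4 in high ones, beside 7.36% and 1.29% of all genes. In 27 of the 31 the segments lay between -1 and -0.5 in both replicates, and none was below -1 in both. The members lie apart from each other, in 30 segments of replicate 1 and 29 of replicate 2. Among the lowest gene ratios were those of GRM7, a metabotropic glutamate receptor, at -0.79 in replicate 1 and -0.81 in replicate 2, and GRIN2A, an NMDA receptor subunit, at -0.89 and -0.70. Of the members starting in high segments, GABRB1, a GABA receptor subunit, averaged 0.63 ± 0.11 (SD, n = 2) over its span. CTNNA3, an alpha-catenin, started in high segments but averaged -0.17 in replicate 1 and -0.38 in replicate 2 over its whole length. DLGAP1, a postsynaptic scaffold protein, started in low ones but averaged 0.12 and 0.19. These genes are long, with a median of 959 kb, and can pass through several segments. Of the 31 that started in low long segments, 6 lay wholly inside them in both replicates, and of the 4 in high ones 0 did. Among all measured genes it was 1051 of 1382 for low and 176 of 243 for high. The share of 55.4% thus describes start sites and not whole genes.

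Olfactory receptors, the odorant receptors of the nasal epithelium, lie in clusters. Of 385, 207 (53.8%) started in low long segments of both replicates and 6 in high ones. The 207 rest on 24 segments in replicate 1 and 23 in replicate 2, and 84 of them are on chromosome 11 and 46 on chromosome 1. Their segments had median ratios of -0.58 and -0.68. OR2K2 was the highest of the 6 in high segments, at 1.04 in replicate 1 and 0.98 in replicate 2.

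Keratins and keratin-associated proteins, which build hair and the epithelial cytoskeleton, went both ways by cluster. Of 149, 39 started in high long segments of both replicates, 37 of them in the chromosome 17 cluster, and 33 in low ones, all in the chromosome 21 cluster. The 39 rest on 2 segments in replicate 1 and 3 in replicate 2, and the 33 on 2 in each. In the chromosome 17 cluster KRT12, KRT20 and KRT23 shared a segment at 1.03 in replicate 1 and 1.12 in replicate 2. In the chromosome 21 cluster KRTAP13-1 was at -0.70 and -0.80. Zinc finger genes with the ZNF symbol had 37 of 494 in low segments (7.49%, against 7.36% of all genes), 30 of them on chromosome 19, and 2 in high ones, ZNF366 and ZNF217. ZNF366 averaged 1.14 ± 0.06 (SD, n = 2), whereas ZNF217 started in high segments but averaged -1.13 in replicate 1 and 0.09 in replicate 2 over its span.

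Some lists had no or 1 member in long segments of the same sign in both replicates, where 1.29% of all genes were in high and 7.36% in low ones. For the shortest lists such a count is close to those shares. None of 39 HOX genes, 58 clustered histone genes, 43 chromatin and macroH2A partner genes or 15 endothelial genes did so. In a single replicate 11 HOX, 17 clustered histone, 6 chromatin and 4 endothelial genes started in a long segment. Over all 18776 measured genes, 2804 did so in a single replicate. Ribosomal proteins had 1 of 78, RPL10L, a testis copy of RPL10, at -0.51 and -0.67. Cell cycle genes had 1 of 30, MCM4, a subunit of the replicative helicase, which lies beside PRKDC and read -2.21 in replicate 1 and -1.50 in replicate 2. Epithelial genes had 1 of 25, ESRP2, a splicing regulator, at -1.70 and -1.86.

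Of 27 fibroblast matrix and contractile genes, 3 started in long segments of both replicates, 2 in low (7.41%) and 1 in high ones (3.70%). Over all measured genes the shares were 7.36% in low and 1.29% in high ones, so the low share was near that of all genes. COL3A1, a fibrillar collagen, at -1.52 in replicate 1 and -1.49 in replicate 2, and FBN1, the microfibril protein fibrillin, at -1.19 and -1.15, lay in low ones. LUM, the proteoglycan lumican, lay in a high one at 0.96 and 0.81. COL14A1, a collagen associated with fibrils that was not on the list, was among the longest genes wholly inside high segments, at 1.10 in replicate 1 and 1.11 in replicate 2. Of 39 senescence secretory genes, CXCL12, a chemokine of stromal cells, was the single one in high long segments (2.56%), at 0.64 and 0.77. None was in low ones. Of 24 immune genes, PTPRC, the leukocyte phosphatase CD45, lay in high segments (4.17%) at 0.86 and 0.85. IKZF1, MS4A1 and GZMB lay in low ones (12.5%) between -0.38 and -0.81.

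Developmental transcription factors had 4 of 91 in high (4.40%) and 9 in low long segments (9.89%), against 1.29% and 7.36% of all measured genes. RUNX1, a regulator of blood development, read 0.86 in replicate 1 and 0.93 in replicate 2, and CITED2, a transcriptional coregulator, 0.98 and 0.92 in a segment with TXLNB. ZEB1, a repressor of epithelial genes, was the lowest at -1.95 and -2.10, and it was the single member of the list below -1. IRX1 and IRX2, neighbouring homeobox genes, lay in low segments at -0.94 each in replicate 1 and at -0.63 and -0.70 in replicate 2, in that order, and IRX3 lay in high ones at 0.03 and 0.16.

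**Figure D5:**
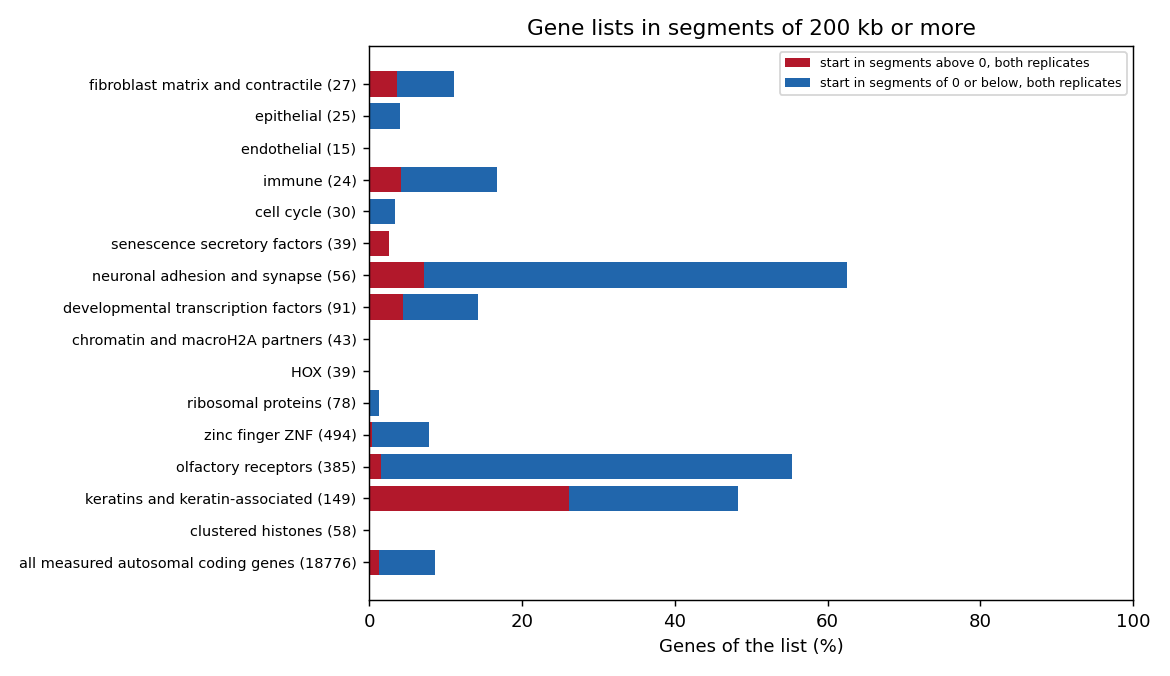
Percent of each gene list, with the number of measured genes in brackets, whose start lies in high (red) or low (blue) segments of 200 kb or more in both replicates. The bottom bar is all 18776 measured coding genes. Neuronal adhesion genes and olfactory receptors are mostly blue, at 55.4% and 53.8%, and keratins are split.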

How the data were processed

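MacroH2A1 ChIP-seq and input samples of IMR90 cells were sequenced, per the labels, and the submitters' processing notes name CASAVA 1.7 and hg19. Not given in the sources used here are the aligner, the segmentation program and how ChIP was scaled to input. The authors deposited 1 segmentation per ChIP replicate, not pooled, with a log2 ratio and a −log10 p-value per segment. The log base was inferred from the values. The depth is unknown, so no counting interval could be made, and with 2 replicates no test between groups was run. A segment value averages a long stretch and hides short peaks and dips.

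Segments were intersected exactly with GENCODE release 44 on GRCh37 and with the other replicate (python 3.11.15, numpy 2.4.6, pandas 2.3.3), after the interval arithmetic was tested on simulated data. Base shares and GC content were counted over blocks. Start sites and touched genes were counted over the whole span, gaps included. Starts per Mb were divided by the length of the blocks, so starts in gaps raise these densities. A coding gene was measured where blocks of both replicates covered 50% or more of it, which left 18776 of 19229 autosomal genes. A gene's ratio is the mean over its span, and its place is the segment at its start. Named genes were the 3 highest and 3 lowest of each of the 15 lists in high and in low segments, the longest genes wholly inside, and up to 3 genes in each of the 5 longest and 5 most extreme segments. The longest assembled segments, the stretches shared by both replicates and their genes, and the pairs of mismatches and of genes that differ between replicates, were added after their values were seen. A few genes chosen this way are left out of the text. Promoters shown were the 2 lowest, longest or highest named genes with a unique match that ended within 20 bases of the annotated start. Genes on chromosome 8, among them COL14A1, were left out of this choice. The segments and lists were chosen with earlier results of these data known. Alternatives were spans of 150 and 300 kb, block sums, a −log10 p of at least 2, stricter matches, whole gene spans and each replicate alone.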

Additional observations from a re-analysis of the deposited data

How the results depend on the processing

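Averaged over both replicates there were 2507 long segments, 31.3% of them high, and 93.5% had the same sign in the other replicate. With a threshold of 150 kb there were 3886 segments, and with 300 kb there were 1339, of which 23.6% were high. Requiring a −log10 p of at least 2 for high segments gave 28.3% high. The share matched was 82.5% when 90% of bases had to have the same sign and 60.7% with reciprocal overlap of 50% with 1 segment. Leaving out segments that are 50% or more unassembled, an alternative chosen after seeing the data, gave 93.6%. Of the 1547 measured genes on the lists, 58 started in high and 325 in low segments of both replicates. Over all 18776 measured genes it was 243 (1.29%) and 1382 (7.36%). Of the 58, 39 are keratin or keratin-associated genes in 2 segments of replicate 1 and 3 of replicate 2. Of the 325, 207 are olfactory receptors in 24 and 23 segments, so these counts rest largely on clusters. With a single replicate the counts were 87 to 109 high, and 357 to 576 low. The larger counts came from replicate 2 alone, where no second replicate has to bear them out. The other 46 of 55 alternatives moved their result by less than the spread between the replicates, or within 1.5 times for a count. For a mean of the 2 replicates, leaving out 1 of them cannot move the result beyond that spread. Those alternatives were therefore bound to count as unmoved and say nothing about stability. No paired analysis was possible because the inputs have no file of their own and the ratio already contains them. Unknown depth and 2 replicates limit every value, and unassembled or duplicated sequence limits the longest spans.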
